A study of Mus musculus with 10 samples.

Results

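The NR4A receptors and the EGR zinc finger factors were followed here with the corepressors that bind the EGR factors, in the hearts of mice labelled as lacking PGC-1a that had received either tamoxifen or oil. The 8 genes were Nr4a1, Nr4a2 and Nr4a3, then Egr1, Egr2 and Egr3, then Nab1 and Nab2. They were taken by gene symbol from the 19938 genes that the array's annotation names on a probe set with a single symbol, each of the 8 by exactly 1 probe set. The family was selected on its signal in these same groups of arrays, so the group differences below describe the choice and carry no test.

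The study measured total RNA of the cardiac biventricle on 10 Affymetrix mouse gene arrays, 5 in each group and 1 per mouse. The tamoxifen-labelled arrays are titled PGC-1a-/-bf/f/MerCre and carry the genotype label PGC-1a KO/PGC-1b KO: at 2 months of age the mice were given 50 mg/kg/day of tamoxifen on 2 days, to activate the Cre recombinase, and the tissue was taken at 3 months of age. The vehicle-labelled arrays are titled PGC-1a-/- and labelled PGC-1a KO with PGC-1b expression unaffected: mice of the same ages that had been given the sunflower seed oil without the drug. By these labels both groups share the loss of PGC-1a. The series' design text names PGC-1a-/- mice as the second set, whereas the source label of the same arrays says PGC-1a-/-bf/f/MerCre mice given vehicle, so whether the oil group carried the floxed allele and the MerCre transgene is not settled by the labels. The labels do not name the promoter that drives MerCre, the sex of the mice or the hour of collection. No group of mice without MerCre received tamoxifen, so the drug and the gene loss cannot be told apart.

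The gene that the drug was meant to delete goes against its label. The Ppargc1b probe set, which encodes PGC-1b, averaged 10.03 ± 0.101 in tamoxifen-labelled arrays and 9.76 ± 0.1 in vehicle-labelled arrays on the log2 scale (SD, n = 5 each), a difference of 0.27 ± 0.0613 (SE) with a limma adjusted p of 0.00528. Where its probes lie relative to the deleted part of the gene is not given, so the probe set may not check the deletion, and each direction below rests on the labels alone. Ppargc1a, which encodes PGC-1a, read 11.20 ± 0.232 in tamoxifen-labelled arrays and 10.81 ± 0.138 in vehicle-labelled arrays, a difference of 0.39 ± 0.0952 (limma adjusted p = 0.00813). Both groups thus read well above the dim limit of 6.53 described below for a gene labelled as knocked out, and this probe set's place relative to the deleted part is likewise not given. Markers bear out the tissue label: the mean log2 signal of 10 cardiomyocyte genes lay between 13.65 and 13.69 in the tamoxifen-labelled arrays and between 13.63 and 13.67 in the vehicle-labelled arrays. Array medians ran from 7.18 to 7.31, the highest being tamoxifen-labelled array 2.

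NR4A receptors are orphan nuclear receptors: their ligand pocket is filled by bulky side chains, and their activity follows how much of the protein is made. They bind the response element called NBRE as monomers, and Nr4a1 and Nr4a2 also pair with the retinoid X receptors. EGR factors carry zinc fingers that read a GC-rich element, and Nab1 and Nab2 bind a repressor domain that Egr1, Egr2 and Egr3 share, so that NAB proteins, themselves induced by EGR factors, can close a feedback loop. Most of the family are immediate early genes, switched on within minutes of a stimulus through CREB, SRF with its ternary complex partners and MEF2. In the heart such stimuli include stretch, adrenergic drive, growth factors and ischaemia. In skeletal muscle Nr4a1 and Nr4a3 are known regulators of glucose and lipid metabolism.

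The upstream windows are shown because several of these genes share response elements that the rule did not use. They are RefSeq sequences on mouse build GRCm38.p6, each running from 250 bases before to 50 bases after an annotated start. A chromosome was left out when the members were looked up, and 6 of the 8 genes had a window among the rest. Egr1 and Egr3 had no window there and were not searched. Whether the chromosome left out is the reason was not checked for either gene. Their absence does not mean that they have no annotated window. Capitals mark matches, on either strand, to TGACG (the core of the cAMP response element, CRE, which CREB reads), to GCGNGGGCG (the EGR site) and to the CArG box, which SRF reads.

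Nr4a1, chr15:101266596-101266895, plus strand: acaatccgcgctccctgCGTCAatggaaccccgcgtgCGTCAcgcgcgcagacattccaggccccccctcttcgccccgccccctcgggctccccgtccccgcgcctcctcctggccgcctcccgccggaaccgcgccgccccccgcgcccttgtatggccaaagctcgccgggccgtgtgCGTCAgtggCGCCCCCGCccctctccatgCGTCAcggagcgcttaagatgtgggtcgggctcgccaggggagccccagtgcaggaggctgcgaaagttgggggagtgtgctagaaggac

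Nr4a2, chr2:57123954-57124253, minus strand: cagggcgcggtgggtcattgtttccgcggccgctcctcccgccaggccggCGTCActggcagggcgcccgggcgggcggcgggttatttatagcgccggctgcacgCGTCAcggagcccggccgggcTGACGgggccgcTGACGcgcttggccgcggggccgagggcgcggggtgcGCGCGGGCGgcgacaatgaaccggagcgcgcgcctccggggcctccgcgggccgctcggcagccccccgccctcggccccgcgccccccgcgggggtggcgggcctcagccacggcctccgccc

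Nr4a3, chr4:48045055-48045354, plus strand: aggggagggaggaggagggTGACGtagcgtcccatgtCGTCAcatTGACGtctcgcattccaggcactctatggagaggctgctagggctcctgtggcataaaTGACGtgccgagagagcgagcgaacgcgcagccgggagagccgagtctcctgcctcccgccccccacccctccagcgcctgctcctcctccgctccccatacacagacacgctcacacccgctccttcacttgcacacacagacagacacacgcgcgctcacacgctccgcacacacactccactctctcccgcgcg

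Egr2, chr10:67537619-67537918, plus strand: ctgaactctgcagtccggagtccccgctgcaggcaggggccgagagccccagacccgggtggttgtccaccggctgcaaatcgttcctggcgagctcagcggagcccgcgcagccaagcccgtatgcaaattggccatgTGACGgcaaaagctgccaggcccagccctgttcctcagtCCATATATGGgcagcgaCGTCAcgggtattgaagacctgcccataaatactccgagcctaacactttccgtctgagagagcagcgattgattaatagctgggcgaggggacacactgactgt

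Nab1, chr1:52500399-52500698, minus strand: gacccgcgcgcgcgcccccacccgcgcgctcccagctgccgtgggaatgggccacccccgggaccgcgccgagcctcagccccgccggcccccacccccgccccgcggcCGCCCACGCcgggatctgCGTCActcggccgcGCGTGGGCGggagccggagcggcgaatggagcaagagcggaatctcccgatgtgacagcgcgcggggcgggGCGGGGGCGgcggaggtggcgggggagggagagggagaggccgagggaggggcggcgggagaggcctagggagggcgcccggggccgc

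Each of the 3 NR4A windows held 4 TGACG cores. At least 4 are held by 0.231% of the 32851 windows searched, and at least 1 by 20.8%. In Nr4a1 they begin 233, 213, 69 and 40 bases before the start, in Nr4a2 200, 144, 123 and 111 bases before it, and in Nr4a3 231, 213, 205 and 147 bases before it. Nr4a1 and Nr4a2 also held 1 EGR site each, 60 and 74 bases before the start, a match that 5.55% of all windows have. The Egr2 window, the one shown of 5 annotated starts, held a CArG box 72 bases before the start between 2 TGACG cores. It was chosen because it holds both motifs: the windows of 2 nearby starts overlap it and hold the same matches, the window that begins at 67537316 holds a CArG box and no TGACG core, and the one at 67535249 holds no match. A CArG box is found in 1.63% of all windows. The Nab1 window held 1 TGACG core and 3 EGR sites, 141, 109 and 38 bases before the start. At least 3 EGR sites are held by 0.195% of all windows. The Nab2 window held none of these motifs, and the NBRE sequence AAAGGTCA, in 1.51% of all windows, was in no window of the 6 genes. The full CRE, TGACGTCA, in 1.79% of all windows, was also in none of them, so the TGACG matches are half-sites only. A match is a description of letters and shows no binding.

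Among the receptors, Nr4a3 (also called NOR1) had the widest separation between the groups. Its log2 signal was 10.78, 10.73, 10.45, 11.07 and 10.98 in tamoxifen-labelled arrays 1 to 5, against 8.76, 9.30, 8.51, 8.90 and 9.31 in vehicle-labelled arrays 1 to 5. The groups did not overlap, and 1.14 log2 units separate the lowest tamoxifen-labelled array, number 3, from the highest vehicle-labelled array, number 5. The means were 10.80 ± 0.241 in tamoxifen-labelled arrays and 8.96 ± 0.348 in vehicle-labelled arrays (SD, n = 5 each), a difference of 1.85 ± 0.141 (SE), or 3.60-fold. It ranked 2 among the differences of the 13953 genes that passed a filter on dim signal.

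Nr4a1 (Nur77), the receptor most studied in muscle glucose use, read 11.43, 11.03, 11.17, 11.52 and 10.86 in tamoxifen-labelled arrays 1 to 5, against 10.37, 10.38, 9.91, 10.32 and 9.47 in vehicle-labelled arrays 1 to 5. The groups did not overlap, and array 5 was the lowest in both. The difference was 1.11 ± 0.159 (SE), or 2.16-fold, between 11.20 ± 0.274 in tamoxifen-labelled arrays and 10.09 ± 0.398 in vehicle-labelled arrays. Without vehicle-labelled array 5 it was 0.96.

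Nr4a2 (Nurr1), best known from dopamine neurons, differed least of the 3 receptors. It read 8.63, 8.31, 8.41, 8.41 and 8.27 in tamoxifen-labelled arrays 1 to 5, against 8.06, 8.07, 8.04, 8.05 and 7.88 in vehicle-labelled arrays 1 to 5. The groups again did not overlap, with vehicle-labelled arrays 1 to 4 within 0.03 of each other. The difference was 0.39 ± 0.0657 (SE), or 1.31-fold, between 8.41 ± 0.14 in tamoxifen-labelled arrays and 8.02 ± 0.0791 in vehicle-labelled arrays.

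**Figure D1:**
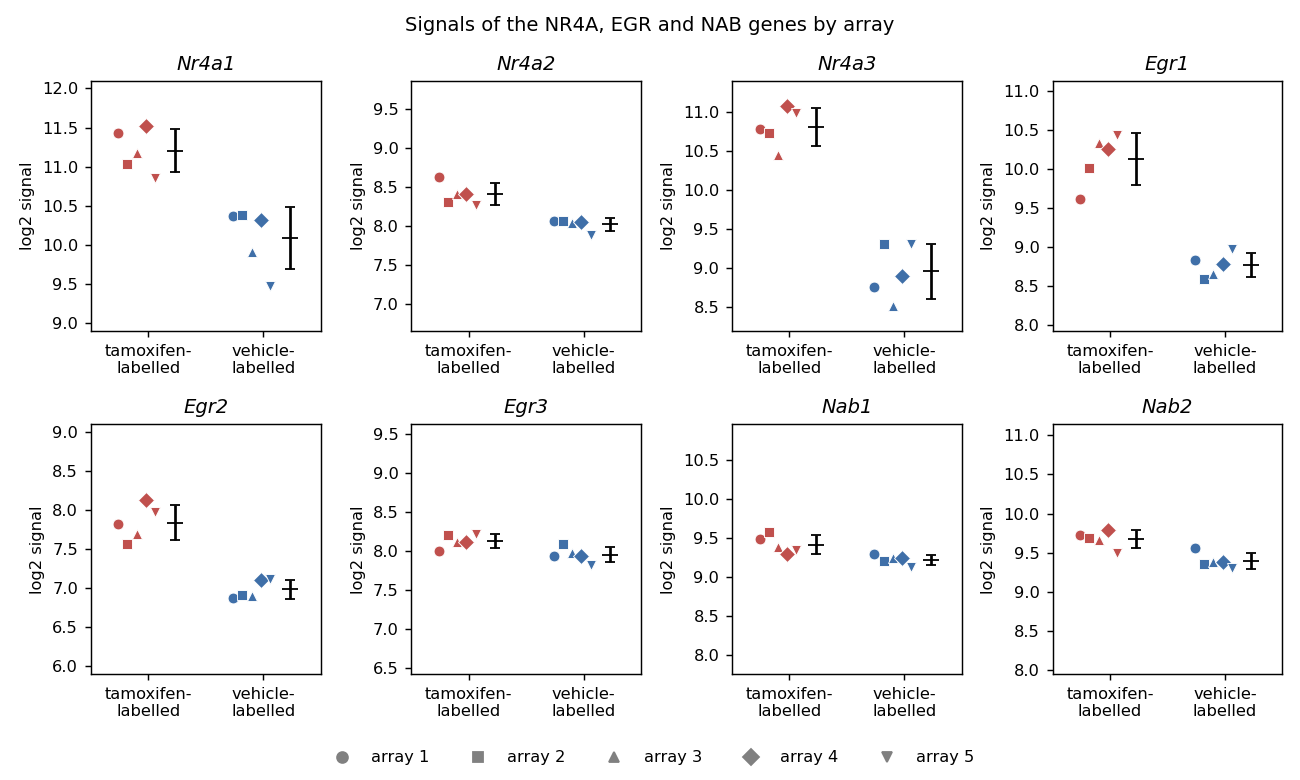
Log2 signal of the 8 genes on each array, with tamoxifen-labelled arrays left of vehicle-labelled arrays. The shape of a point gives the array number, and bars show the group mean ± SD (n = 5 each). The groups are apart for Nr4a1, Nr4a2, Nr4a3, Egr1 and Egr2, and overlap for Egr3, Nab1 and Nab2; levels of different genes come from different probe sets and are not comparable.

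Egr1, the EGR factor induced by stretch and growth factors in the heart, had the largest difference of the EGR genes. It read 9.61, 10.01, 10.33, 10.25 and 10.44 in tamoxifen-labelled arrays 1 to 5, against 8.84, 8.59, 8.66, 8.79 and 8.97 in vehicle-labelled arrays 1 to 5. The groups were 0.64 apart at their nearest points, tamoxifen-labelled array 1 being the low one of its group. The difference was 1.36 ± 0.122 (SE), or 2.56-fold, between 10.13 ± 0.33 in tamoxifen-labelled arrays and 8.77 ± 0.15 in vehicle-labelled arrays, and without tamoxifen-labelled array 1 it was 1.49.

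Egr2 (Krox20), known from Schwann cell myelination and from lymphocytes, read 7.82, 7.57, 7.69, 8.13 and 7.97 in tamoxifen-labelled arrays 1 to 5, against 6.88, 6.91, 6.90, 7.11 and 7.12 in vehicle-labelled arrays 1 to 5. The groups were 0.45 apart, and in both of them arrays 4 and 5 were the highest. The difference was 0.85 ± 0.0902 (SE), or 1.81-fold, between 7.84 ± 0.222 in tamoxifen-labelled arrays and 6.98 ± 0.12 in vehicle-labelled arrays. The vehicle-labelled readings lie not far above 6.53, the log2 signal below which the dimmest 30% of genes were left out.

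Egr3, which muscle spindles need and which acts beside Egr2 in lymphocytes, read 8.0, 8.21, 8.12, 8.11 and 8.22 in tamoxifen-labelled arrays 1 to 5, against 7.93, 8.09, 7.97, 7.94 and 7.82 in vehicle-labelled arrays 1 to 5. Its groups overlap, since tamoxifen-labelled array 1 lies below vehicle-labelled array 2. The difference was 0.18 ± 0.0589 (SE), or 1.13-fold, between 8.13 ± 0.0893 in tamoxifen-labelled arrays and 7.95 ± 0.0967 in vehicle-labelled arrays.

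The corepressors were nearer to Egr3 than to Egr1 in size. Nab2, a corepressor gene that EGR factors themselves induce, read 9.73, 9.69, 9.66, 9.79 and 9.49 in tamoxifen-labelled arrays 1 to 5, against 9.56, 9.35, 9.38, 9.38 and 9.30 in vehicle-labelled arrays 1 to 5. Vehicle-labelled array 1 lies above tamoxifen-labelled array 5, and apart from that pair every tamoxifen-labelled array was above every vehicle-labelled array. Its means were 9.67 ± 0.113 in tamoxifen-labelled arrays and 9.39 ± 0.0984 in vehicle-labelled arrays, a difference of 0.28 ± 0.0631 (SE), or 1.21-fold.

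Nab1 read 9.49, 9.58, 9.38, 9.29 and 9.34 in tamoxifen-labelled arrays 1 to 5, against 9.30, 9.20, 9.24, 9.25 and 9.13 in vehicle-labelled arrays 1 to 5. Only vehicle-labelled array 1 reaches into the tamoxifen range, just above tamoxifen-labelled array 4. The difference was 0.19 ± 0.0594 (SE), or 1.14-fold, between 9.42 ± 0.118 in tamoxifen-labelled arrays and 9.22 ± 0.0635 in vehicle-labelled arrays.

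All 8 genes passed the dim filter and all 8 were called higher by limma (Benjamini-Hochberg adjusted p under 0.05 over all genes tested), where 13.6% of the 13953 genes tested were. In 5 of the 8 every tamoxifen-labelled array was above every vehicle-labelled array, as for 10.5% of genes tested. Both counts follow from how the genes were chosen. The median difference over all tested genes was 0.014. The calls of Egr3 and Nab1 depended on the setting: Egr3 lost its call in 10 of 18 alternatives and Nab1 in 5, with adjusted p up to 0.0975 and 0.0763.

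**Figure D2:**
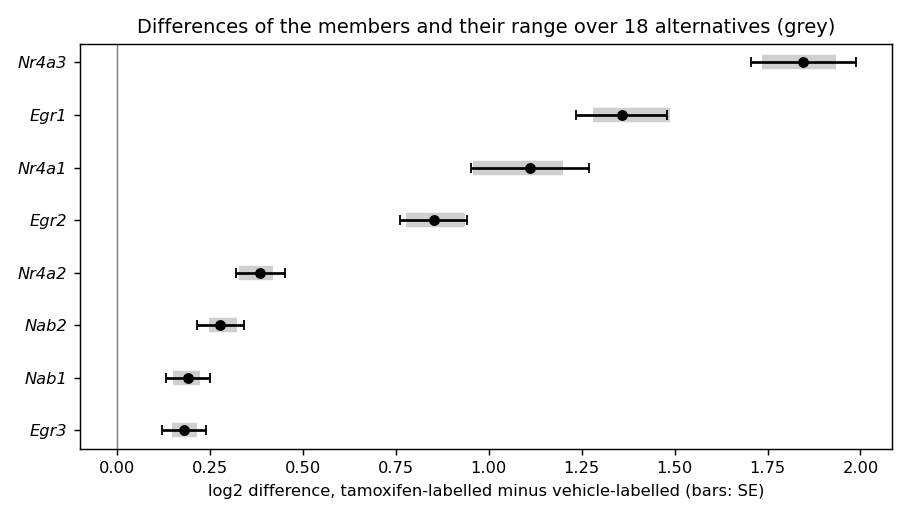
Difference of the group means (tamoxifen minus vehicle, log2) of each of the 8 genes with its standard error, and the range of the difference over the alternatives of processing and the arrays left out in turn. Nr4a3 lies at 1.85 and Egr3 at 0.18, and no range reaches 0.

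Within their groups the 5 genes with the wider separation were also, but for Nr4a2, among the most variable on the arrays. The residual SD of Nr4a1 about its group means was 0.341 and stood at the 99.8th percentile of all tested genes, whose median was 0.0943. Nr4a3 stood at the 99.7th percentile, Egr1 at the 99.5th and Egr2 at the 96.4th. Nr4a2 at the 70.2nd, Nab2 at the 62.8th, Nab1 at the 50.3rd and Egr3 at the 48.5th percentile varied like ordinary genes. The wider group differences thus belong to genes whose mice also differed more from each other in the same group.

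With each gene's group means removed, the 8 genes did not vary as a single block over the 10 arrays. Pearson's r of the 28 pairs had a median of −0.04 and ran from −0.78 to 0.75, with 4 pairs above 0.5 and 3 under −0.5. These are descriptions over 10 deviations that share the arrays and 2 group means, and they are given with no test.

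Nr4a1 and Nr4a2 had the highest correlation of the 28, at r = 0.75 with Spearman's rho of 0.66, and r was 0.49 without the 2 arrays farthest out, array 5 of each group. Nr4a3 and Egr2 followed each other with r = 0.58 and rho = 0.73, and r was 0.55 without their 2 farthest arrays. Nab2 went with Nr4a1 at r = 0.70 and with Nr4a2 at r = 0.56, and r was 0.48 and 0.60 without the 2 farthest arrays. With the replicate number as a block, these 2 values turned to −0.31 and −0.69, and r changed sign in 17 of the 28 pairs. Nab1 opposed Egr2 with r = −0.77 and Egr1 with r = −0.59, but not Egr3, with r = 0.10. The lowest value, −0.78 between Nr4a2 and Egr1, rested on tamoxifen-labelled array 1: r was −0.42 without it, and −0.03 without the 2 farthest arrays.

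**Figure D3:**
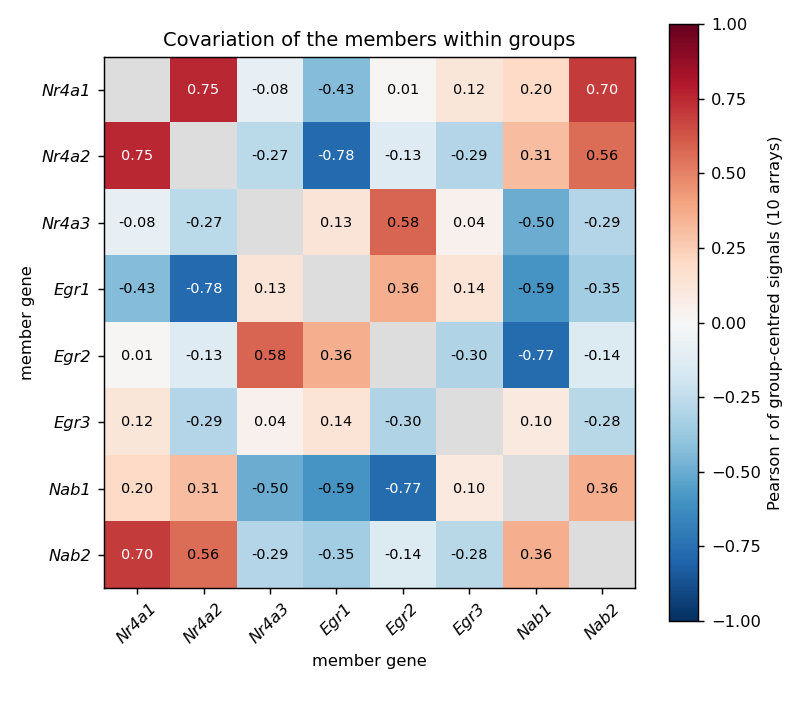
Pearson's r between the 8 genes over 10 arrays, each gene's deviations taken from its own group mean. Nr4a1 with Nr4a2 reaches 0.75 and Nr4a2 with Egr1 −0.78, and the median of the 28 pairs is −0.04.

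The genes whose deviations followed each member most closely, among all genes tested, differed from member to member. For Nr4a1 the closest was Per1, a core clock gene that CREB also induces, at r = 0.95 with rho = 0.79, and r was 0.86 without array 5 of each group. Per1 was 10.02, 9.79, 9.68, 9.94 and 9.42 in tamoxifen-labelled arrays 1 to 5, against 9.80, 9.68, 9.42, 9.75 and 8.97 in vehicle-labelled arrays 1 to 5. Array 5 was the lowest of both groups in Per1 as in Nr4a1, but the Per1 groups overlap, with a difference of 0.25 ± 0.138 that limma did not call (adjusted p = 0.228). Fdps, of the mevalonate pathway, came next at r = 0.94, before Crybg2 at 0.92, Gdap10 at 0.87 and Olfr372 at 0.86.

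For Nr4a3 the closest was Tacc2, a centrosomal coiled-coil gene, at r = 0.97 and rho = 0.97, with r = 0.99 without the 2 farthest arrays. Klf11, a zinc finger repressor, followed at r = 0.95 and Myc, the growth regulator, at r = 0.91 with rho = 0.93, then Parp12 at 0.91 and Wdr74 at 0.90. Myc was 7.87, 8.15, 7.62, 8.31 and 8.16 in tamoxifen-labelled arrays 1 to 5, against 7.75, 8.15, 7.68, 8.01 and 8.34 in vehicle-labelled arrays 1 to 5. Its groups overlap throughout, and its difference was 0.04 ± 0.13 (limma adjusted p = 0.88). Tacc2, at −0.05, and Klf11, at 0.02, likewise had no called difference, so these partners followed the deviations of Nr4a3 within groups while Nr4a3 alone of them stood 1.85 apart between groups.

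Egr1 had the classical AP-1 genes beside it. Dusp1, a phosphatase of the MAP kinases, had r = 0.91 with rho = 0.80, Jun r = 0.90 with rho = 0.92 and Fos r = 0.88 with rho = 0.95, and the 3 kept r of 0.90, 0.83 and 0.87 without the 2 farthest arrays. Fos read 7.91, 7.85, 8.42, 8.39 and 8.50 in tamoxifen-labelled arrays 1 to 5, against 7.41, 7.19, 7.24, 7.28 and 7.45 in vehicle-labelled arrays 1 to 5. As in Egr1, arrays 1 and 2 were the low ones among the tamoxifen-labelled and array 5 was the highest of both groups. Unlike Per1 and Myc these partners also differed between groups: Fos by 0.90 ± 0.112 (limma adjusted p = 2.19e-05), Jun by 0.43 ± 0.0767 (adjusted p = 0.00072) and Dusp1 by 0.41 ± 0.0633 (adjusted p = 0.000176). Zfp839, at r = 0.91, and the noncoding Pvt1, at r = 0.88, made up the 5.

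For Egr2 the closest was Maff, a small Maf factor and itself an immediate early gene, at r = 0.97 with rho = 0.99 and r = 0.94 without the 2 farthest arrays. Its difference of 0.16 ± 0.0639 did not pass the test (limma adjusted p = 0.0832). Mpp7 came next at 0.92, then Prrg1 and Rtl6 at 0.89 each. The chemokine gene Ccl2, at r = 0.88, did rise, by 0.66 ± 0.107 (adjusted p = 0.000312).

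Nr4a2 was followed by Olfr522 at r = 0.92, Psme1 at 0.88, Plbd1 at 0.85, and Tet2 and Rbmxl2 at 0.84 each. These values leaned on tamoxifen-labelled array 1 and vehicle-labelled array 5, and without them r was 0.59 for Olfr522 and −0.09 for Rbmxl2. For Egr3, whose spread was ordinary, the list was Fam161b at 0.98, Stoml2 at 0.95, Ccdc187 at 0.92, Cgref1 at 0.91 and Champ1 at 0.90. Of these lists for Nr4a2 and Egr3, none holds an immediate early gene of the list used here.

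The NAB genes had other company. Nab2 went with Npc1, the lysosomal cholesterol transporter, at r = 0.97, and with the clock repressor Cry2 at r = 0.96, which was 0.99 without the 2 farthest arrays. Ccrl2 at 0.95, Got1 at 0.94 and Kyat1 at 0.94 completed its list, and these 3 fell between the groups while Nab2 was higher: Kyat1 fell by 0.54 ± 0.0526 on the log2 scale (limma adjusted p = 1.34e-06) and Got1, the cytosolic aspartate aminotransferase, fell by 0.41 ± 0.0517 (adjusted p = 2.38e-05). Nab1 went with Cenpv at r = 0.98, B3galt1 at 0.97, Smim24 at 0.96, Tmub1 at 0.95 and Igf1, the growth factor gene, at 0.95. Igf1 rose by 0.30 ± 0.075 (adjusted p = 0.00924). Nab1's deviations were widely shared: 32.1% of all tested genes had an r above 0.5 with it, against 10.8% for Nab2 and 4.61% for Nr4a1.

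**Figure D4:**
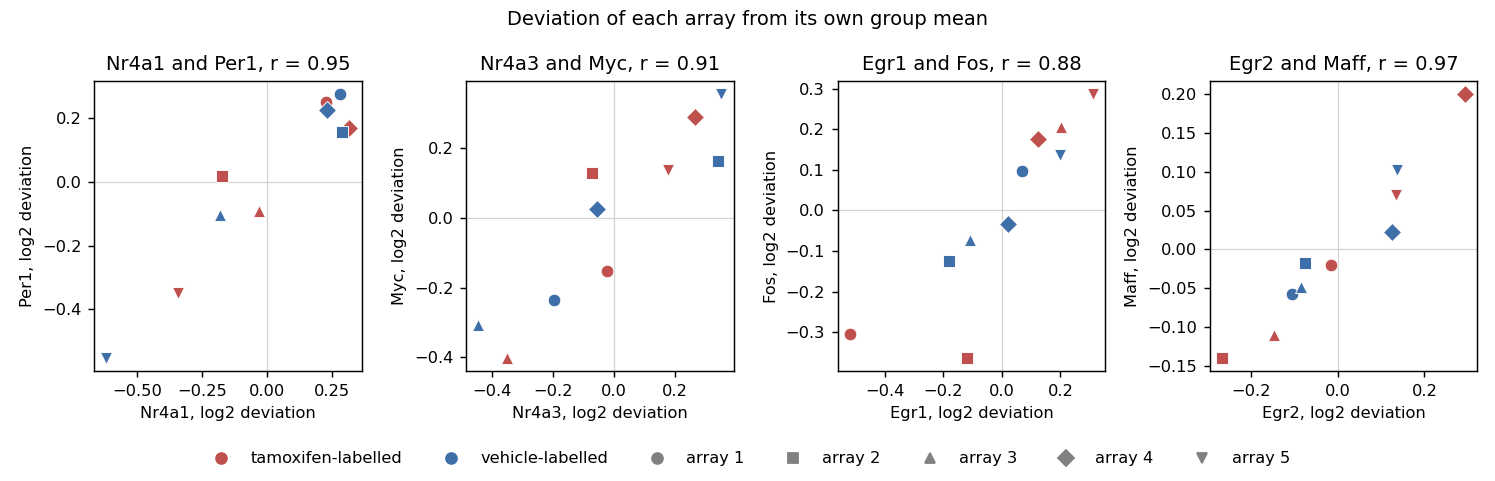
Deviation from the group mean (log2) of Nr4a1 with Per1, Nr4a3 with Myc, Egr1 with Fos and Egr2 with Maff, 1 point per array, with tamoxifen-labelled and vehicle-labelled arrays marked. Pearson's r over the 10 arrays is 0.95, 0.91, 0.88 and 0.97.

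The other immediate early genes rose with the family in part. Of 42 such genes tested, 19 rose and 0 fell, with 29 higher and 0 lower at an unadjusted p under 0.05 in limma. Their median difference was 0.23 against 0.014 over all genes. Of all tested genes 13.6% were called higher and 8.28% lower, the shares to set beside this and every list count below. For the counts at an unadjusted p no share over all genes was worked out. Fos had the largest difference of them, followed by Btg2, an antiproliferative gene, with 0.81 ± 0.0786 (limma adjusted p = 1.34e-06) between 10.49 ± 0.16 in tamoxifen-labelled arrays and 9.68 ± 0.137 in vehicle-labelled arrays. Hbegf, an EGF receptor ligand, rose by 0.79 ± 0.0937 (adjusted p = 1.28e-05), and the matricellular gene Ccn1 by 0.58 ± 0.0741 (adjusted p = 2.95e-05). In 12 of the 42 every tamoxifen-labelled array was above every vehicle-labelled array, as for 10.5% of all tested genes. The count of higher genes ran from 17 to 28 over the alternatives.

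The members differed in which of these 42 genes their deviations followed. With an r above 0.5 counted, Nr4a3 had 16 of them (38.1%, against 6.66% of all tested genes) and Egr2 14 (33.3% against 2.74%). Egr1 had 10 (23.8% against 2.52%) and Nr4a1 8 (19% against 4.61%). The others had fewer: Nab2 6 (14.3% against 10.8%), Nr4a2 2 (4.76% against 3.4%), Nab1 2 (4.76% against 32.1%) and Egr3 1 (2.38% against 13.1%). Egr1 and Egr2 shared 6, which is 60% of Egr1's and 42.9% of Egr2's: Fos, Jun, Junb, Ier5, Btg2 and Ppp1r15a. Nr4a3 and Egr2 shared 7, or 43.8% of Nr4a3's and 50% of Egr2's, among them Atf3, Maff and Myc. Nr4a1 shared 0 with Egr1, 0 with Egr2 and 1, Gem, with Nr4a3, and its 8 were Fosl2, Gadd45b, Gem, Ier3, Klf6, Per1, Rgs2 and Sik1. These counts of shared genes leaned on array 5 of each group. Without both of those arrays Nr4a1 shared 1 gene with Egr1 (Btg2), 7 with Egr2 and 13 with Nr4a3, while Egr1 and Egr2 shared 1 (Junb) and Nr4a3 and Egr2 shared 9. With any single array left out Nr4a1 shared 0 genes with Egr1, 0 to 1 with Egr2 and 0 to 4 with Nr4a3, and Egr1 and Egr2 shared 3 to 9. These settings were chosen after seeing the data.

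**Figure D5:**
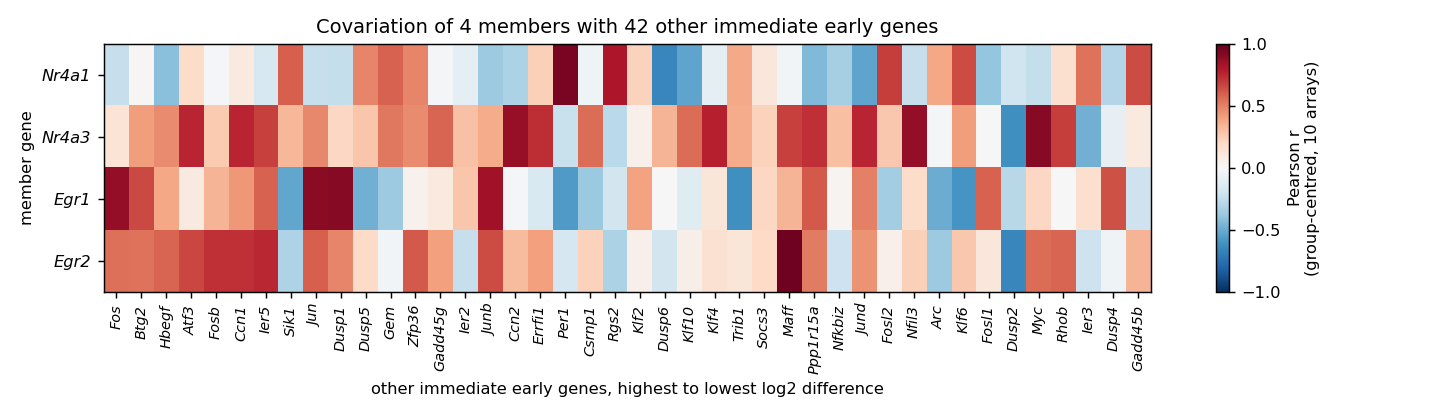
Pearson's r (deviations from group means, 10 arrays) of each of 42 other immediate early genes with Nr4a1, Nr4a3, Egr1 and Egr2. Per1 stands high for Nr4a1, Myc for Nr4a3, Fos and Jun for Egr1, and Maff for Egr2.

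The core clock genes, a list that also holds Per1, were set beside the family because several immediate early genes swing through the day. Of 14 tested, Ciart, a clock repressor, was higher by 0.80 ± 0.258 (limma adjusted p = 0.0352) and Clock by 0.25 ± 0.0843 (adjusted p = 0.0454), and 0 were called lower, also at an unadjusted p under 0.05. Ciart lost its call in 9 and Clock in 10 of 18 alternatives. Ciart read 9.98, 10.04, 10.24, 10.35 and 9.36 in tamoxifen-labelled arrays 1 to 5, against 9.94, 8.94, 9.53, 9.44 and 8.10 in vehicle-labelled arrays 1 to 5, array 5 being the lowest of both groups as in Nr4a1. Of the 14 genes, 6 had an r above 0.5 with Nr4a1 (42.9%, against 4.61% of all tested genes). With Nab2 10 did (71.4% against 10.8%), and the median r was 0.73. With Egr1 and Egr2 the count was 0, near the 2.52% and 2.74% of all tested genes. How these counts depend on array 5 was not worked out. The part of the hour of collection in the levels of these genes was not tested.

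Among the factors that switch the family on, Srf itself rose. It averaged 10.87 ± 0.123 in tamoxifen-labelled arrays and 10.37 ± 0.0733 in vehicle-labelled arrays, a difference of 0.50 ± 0.0615 (limma adjusted p = 2.02e-05), and it was the only one called of 7 genes for SRF, its ternary complex factors and its myocardin-related coactivators. In the CREB family and its coactivators 1 of 8 rose, Crtc1, by 0.23 ± 0.0492 (adjusted p = 0.00289). Counts of 1 of 7 and 1 of 8 are near the 13.6% of all tested genes called higher. Of 7 MEF2 and class IIa histone deacetylase genes 0 were called in limma, with 1 higher at an unadjusted p under 0.05. That was Mef2d, with a difference of 0.12 ± 0.0486 (adjusted p = 0.081, with 0.0256 to 0.725 over the alternatives). The transcript levels say nothing of the phosphorylation by which these factors are mostly controlled.

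Kinases of the ERK, p38, PKA and CaMK routes, which carry the stimulus to those factors, moved modestly. Of 14 tested, 6 rose and 1 fell, where 13.6% of all tested genes were called higher and 8.28% lower. Prkar1a, a regulatory subunit that holds PKA inactive, rose by 0.39 ± 0.0573 (limma adjusted p = 0.000127), and Map2k6, an activator of p38, by 0.39 ± 0.0653 (adjusted p = 0.000448). Camk2d, the main CaMKII gene of the heart, rose by 0.27 ± 0.0495 (adjusted p = 0.00104) and Prkar2a by 0.22 ± 0.0469 (adjusted p = 0.00263). Rps6ka5, which encodes MSK1, a kinase of CREB and histone H3, had a difference of −0.16 ± 0.0494 (adjusted p = 0.0255).

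Partners and relatives of the receptors and EGR factors gave a mixed picture. Of 6 retinoid X receptor and coregulator genes, Rxrg, the muscle form, was higher by 0.39 and Ncoa1, a coactivator, differed by −0.18 (limma adjusted p = 1.64e-05 and 0.0121). Of the EGR relatives Egr4 and Wt1, 0 were called in limma and 0 passed an unadjusted p under 0.05. Egr4 read 7.13 ± 0.0472 in tamoxifen-labelled arrays and 7.11 ± 0.188 in vehicle-labelled arrays.

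Metabolic genes of muscle that NR4A receptors are known to influence changed in both directions, 4 rising and 2 falling of 16. Of all tested genes 13.6% were called higher and 8.28% lower. Pgam2, the muscle phosphoglycerate mutase, rose by 0.57 ± 0.0499 (limma adjusted p = 4.82e-07) with 12.03 ± 0.0586 in tamoxifen-labelled arrays and 11.47 ± 0.0642 in vehicle-labelled arrays. Eno3, the muscle enolase, rose by 0.32 ± 0.0431 (adjusted p = 4.79e-05) and Lpin1, a phosphatidate phosphatase and PGC-1a cofactor, by 0.32 ± 0.0451 (adjusted p = 7.06e-05). Dnm1l, which encodes the mitochondrial fission protein DRP1, fell by 0.42 ± 0.056 (adjusted p = 4.1e-05). The median over the 16 was 0.04, near the 0.014 over all tested genes.

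Of 17 genes known to respond to EGR1, 8 rose and 0 fell, with 10 higher and 0 lower at an unadjusted p under 0.05, and the median was 0.14. Timp1, an inhibitor of matrix metalloproteinases, averaged 8.82 ± 0.349 in tamoxifen-labelled arrays and 7.60 ± 0.121 in vehicle-labelled arrays, a difference of 1.22 ± 0.124 (limma adjusted p = 2.37e-06). Thbs1, a matricellular activator of TGF-beta, rose by 0.85 ± 0.0933 (adjusted p = 5.3e-06) and the tissue factor gene F3 by 0.30 ± 0.0715 (adjusted p = 0.00653). Ccl2, given above, belongs to this list too. Many of these genes are also expressed by fibroblasts and macrophages, whose markers were in large part higher in the tamoxifen-labelled arrays too. The part of these cells in the levels of the EGR1-responsive genes was not tested.

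Of 11 macrophage and monocyte markers tested, 9 rose and 0 fell, with all 11 higher and 0 lower at an unadjusted p under 0.05, and the median was 0.28. Their mean log2 signal ran from 8.78 to 9.05 in tamoxifen-labelled arrays and from 8.55 to 8.76 in vehicle-labelled arrays. Cd68 was higher by 0.40 ± 0.0713 (limma adjusted p = 0.000715) and Itgam by 0.34 ± 0.0654 (adjusted p = 0.0015), and Ccr2 was below the dim filter. Of 10 fibroblast markers 7 rose and 0 fell, with 8 higher and 0 lower at an unadjusted p under 0.05 and a median of 0.20, and their mean signal ran from 10.07 to 10.30 in tamoxifen-labelled arrays and from 9.86 to 10.01 in vehicle-labelled arrays. Postn was the first of them at 0.59 ± 0.0894 (adjusted p = 0.000161). Within groups Egr1 and Egr2 ran against these markers and Egr3 did not. The median r over the macrophage markers was −0.59 for Egr1, −0.49 for Egr2 and 0.32 for Egr3, and over the fibroblast markers −0.35, −0.60 and 0.18. For Nr4a1 and Nr4a3 these medians lay between 0 and 0.14. For Nr4a2 they were 0.22 over the macrophage and 0.08 over the fibroblast markers, and for Nab2 0.10 and 0.22. Nab1 had the highest of the 8 genes, at 0.50 and 0.61. Over all tested genes the median r was −0.20 for Egr1, −0.31 for Egr2, 0.18 for Egr3 and −0.01 for both Nr4a1 and Nr4a3. It was −0.07 for Nr4a2, 0.10 for Nab2 and 0.36 for Nab1. The contrast between the EGR genes is thus in part shared by genes at large. In such bulk tissue more cells of a type and more RNA per cell cannot be told apart, and the part of these cells in the family's levels was not tested.

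The other cell types showed less. Among cardiomyocyte markers Actn2 was higher by 0.18 and Ryr2 differed by −0.16, the only 2 of 10 called. Of 10 endothelial markers Cldn5 rose, and of 9 smooth muscle and pericyte markers Cnn1 and Acta2 rose. None of the tested neutrophil (1), T and B cell (4), neuron and Schwann cell (3), erythroid (2) and adipocyte (2) markers was called in limma, and at an unadjusted p under 0.05 1 was lower, Cd79b at −0.16 ± 0.0612 (adjusted p = 0.0778). The smallest p in the other lists were those of Mmp9 (adjusted p = 0.986), Th (0.186), Alas2 (0.178) and Retn (0.294). In those 5 lists many genes were below the dim filter, 7 of 8 for the neutrophil markers.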

How the data were processed

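The authors deposited log2 signals per probe set. The submitters' processing notes name RMA and version 1.1 of the Affymetrix Expression Console. RMA subtracts background, aligns the arrays' distributions and summarises probes, so that global shifts are removed and differences of dim genes are understated. Of 35556 probe sets, 21789 have 1 symbol in the platform annotation, 1621 several and 12146 none. Per gene the brightest single-symbol probe set was kept, and the dimmest 30% of genes were left out, leaving 13953. Groups were compared with limma 3.58.1 in R 4.3.3 (lmFit, eBayes, two-sided, Benjamini-Hochberg, 0.05), checked on simulated data. Each p-value measures the spread between 5 mice per group, whose number limits the precision.

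The members and the 20 lists were chosen with earlier results of these data known. Named genes are the 8 members, the 5 genes of highest group-centred r for each member (predicted and microRNA genes left out), and per list at most 4 called genes of smallest p, or the smallest p where none was called; the other list genes named were chosen after their values were seen. Alternatives were a replicate block, a trended robust prior, array weights, quantile normalization, median centring, no filter, a 50% filter, mean probe sets and each array left out. Promoter windows came from RefSeq and were searched on both strands with Python 3.11.15.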

Additional observations from a re-analysis of the deposited data

Results flagged for a closer look

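Vehicle-labelled array 5 stood apart from the rest of its group for Nr4a2, at 7.88 on the log2 scale where the nearest of the others was 8.04. It was the only such reading among 16 groups of 5 arrays examined over the 8 genes, and chance gives about 1 in 20 groups. Without that array the Nr4a2 difference was 0.35, against 0.39 with it.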

How the results depend on the processing

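Of 228 values of the main results under 18 alternatives, 227 stayed close to the main value. Close meant less than the spread between arrays for a member's difference and at most 1.5 times for counts. For the median r it meant within the error worked out by leaving out each array in turn, which a change of sign can pass. The calls of single members and the r of single pairs are not among the 228. The exception was the count of genes called lower, 1784 with array weights against 1155 in the main analysis. The split of calls moved with single arrays and scaling: the share of higher calls was 62.2% in the main analysis (1897 higher, 1155 lower), and the counts were 1621 higher and 1649 lower without tamoxifen-labelled array 2 and 2087 higher and 1692 lower after quantile normalization, and the cause was not tested. Leaving out 1 array at a time gave 1491 to 1945 higher, 938 to 1649 lower and 6 to 7 of the 8 members called, and 6 were called with no filter on dim genes. The differences of the members ran from 1.73 to 1.94 for Nr4a3, 1.28 to 1.49 for Egr1, 0.96 to 1.20 for Nr4a1, 0.78 to 0.94 for Egr2, 0.33 to 0.42 for Nr4a2, 0.25 to 0.32 for Nab2, 0.15 to 0.22 for Nab1 and 0.15 to 0.22 for Egr3. With the replicate number as a block 2225 genes were higher, 1298 lower, and 8 of 8 members called. Same-numbered arrays correlated at 0.17, 0.20, 0.10, 0.04 and 0.17 for numbers 1 to 5, all above 0, with the own number the best match for 1, 2 and 5. The labels do not say what the numbers stand for, and the main analysis left them unpaired. Whether same-numbered arrays share a source of variation was not tested. With the block Per1 (adjusted p = 0.0066), Maff (adjusted p = 0.0426) and Alas2 (adjusted p = 0.03) gained a call, and r changed sign in 17 of the 28 member pairs: it was 0.40 for Nr4a1 with Nr4a2, 0.53 for Nr4a1 with Nr4a3, 0.88 for Nr4a3 with Egr2, −0.10 for Egr1 with Nab1, −0.31 for Nr4a1 with Nab2 and −0.69 for Nr4a2 with Nab2, while Nr4a1 then shared 3 immediate early genes with Egr1 and Egr1 shared 0 with Egr2. The median r of the members changed sign, being above 0 in 4 of 13 settings, and ran from −0.21 to 0.02 with 1 array left out and from −0.08 to 0.13 otherwise. The number of arrays limits the precision, and no detection call was used.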
